A study of Mus musculus with 3 samples.

Results

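The genes described here are Msln, Spp1, C3 and Krt17, 4 of the 17775 genes with a row in any of 3 tables of droplet transcriptomes from intermediate lobes (IL) of mouse pituitaries. They were grouped because earlier results of the same tables had shown high levels in stem cells (SCs) of the library named S2CK, so their levels in SCs are a description and support nothing. All 4 had a row in the WT and S2CK tables. Msln had none in the P27NULL table and has no value there.

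The IL is a thin epithelium that separates the anterior lobe of the gland from the posterior one. Most of its cells are melanotrophs, whose peptide hormones are cut from the Pomc product, and SCs line the cleft beside it. The study asked how loss of the cell cycle inhibitor p27, encoded by Cdkn1b, and of a copy of Sox2 in SCs acts on IL tumours. There were 3 libraries, 1 per genotype, each from pooled and dissociated ILs of 3-month-old mice, so every comparison is between single libraries and none was tested. WT was Sox9iresCreERT2/+, P27NULL was Sox9iresCreERT2/+;p27-/- and S2CK was Sox9iresCreERT2/+;Sox2fl/+;p27-/-. All 3 therefore carried the tamoxifen-dependent Cre at Sox9, and the study's methods also list a Rosa26ReYFP reporter in each. In the pituitary Sox9 places this Cre in SCs, and the loss of Sox2 in S2CK depends on recombination in each cell, whereas the p27 alleles are constitutive. Tamoxifen was given by gavage, at 4 weeks of age by the labels, whereas the text of the study speaks of induction at birth for these libraries, so how long Sox2 had been lost is uncertain.

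Mesothelin (Msln) is a membrane-anchored glycoprotein best known from the lining of body cavities and from several carcinomas. Osteopontin (Spp1) is a secreted phosphoprotein that binds integrins and CD44, C3 is the component on which all routes of complement activation converge, and Krt17 is an epithelial keratin of skin appendages that is also made in wounded or stressed epithelium. SCs of the pituitary are themselves epithelial and make keratins such as Krt8 and Krt18.

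The tables held 2020, 4153 and 3488 cells and 8332285, 15588317 and 19239147 unique molecular identifiers (UMIs, 1 per captured transcript) in WT, P27NULL and S2CK. Cells called SC-like, from clusters built without the 4 genes and named by Cyp2f2, Mia, Cpxm2, Rbpms, Ednrb, Aldh1a2 and Sox21, numbered 136, 104 and 84, with medians of 2027, 2317 and 3561.5 UMIs per cell. No barcode of an SC-like cell was shared between libraries. In these cells Cdkn1b was at 47.0, 50.2 and 25.3 CPM (the UMIs of the gene scaled to a total of 1000000 UMIs over the cells summed) from WT to P27NULL to S2CK, and Sox2 at 282, 309 and 133 CPM. The library labelled P27NULL thus did not show less Cdkn1b RNA than WT, and whether the 3′ reads lie inside the deleted part of the allele is not given in the sources used here. By the study, WT came from males and the other libraries from both sexes. UMIs of Xist, the RNA of the inactive X chromosome, were in 93.9% of S2CK cells, 18.9% of P27NULL cells and 0.0% of WT cells, and those of Y-linked genes in 0.0%, 18.6% and 28.7%, so S2CK departs from its stated pool and in S2CK against WT the sex of the cells and the genotype cannot be told apart.

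Past a fold of 2, with 20 UMIs or more asked for over the compared groups, all 3 members with a row in both tables were higher in S2CK than in P27NULL, where 4.94% of 6229 genes were, and 4 of 4 were higher in S2CK than in WT, where 5.02% of 6697 genes were. Genes lower past that fold made up 7.8% and 5.67%. In P27NULL against WT, Krt17 was lower and Spp1 was not past the fold, where 4.3% of 5858 genes were higher and 3.04% lower, and C3 had fewer than the 20 UMIs asked for. The members were chosen on these values, so nothing is read from the counts.

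Msln was the member with its UMIs most confined to SCs in the libraries where it had a row. In WT it had 10 UMIs in 5 of 136 SC-like cells (3.68% of cells, 18.8 CPM, 95% Poisson interval 9.01 to 34.6). In S2CK it had 182 UMIs in 32 of 84 cells (38.1%, 288 CPM, interval 247.5 to 332.7). The WT and S2CK intervals do not overlap, and the log2 ratio was 3.94 (exact interval 3.03 to 5.02). Intervals here and below reflect the number of UMIs counted, not variation between animals. All 10 Msln UMIs of WT and 97.8% of those of S2CK lay in SC-like cells. The 4 UMIs left in S2CK were in 4 of 2996 melanotroph-like cells (0.134%), which are deeper than SC-like cells at a median of 5024 UMIs and give a background share for a cell type not expected to make the RNA. No UMI was seen in corticotroph-, gonadotroph-, macrophage-, endothelial- or connective tissue-like cells of either library, and among 38 connective tissue-like cells of S2CK the interval reached 27.4 CPM. Msln lies on chromosome 17 at 25748613 to 25754378 (GRCm38).

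The defining mesothelial markers were absent or at 0. Of the 7 mesothelial markers 1 had a row in S2CK, Nkain4, which had no UMI in its SC-like cells, while Wt1, Upk3b and Upk1b had no row in any table. Mslnl, the mesothelin-like paralogue, had 11 UMIs in SC-like cells of S2CK (17.4 CPM) and 3 in P27NULL (7.93 CPM), and no row in WT. Krt19 and Cd200, the members of the 13-gene list of mesothelin partners and mesothelial genes with enough UMIs to compare, did not pass a fold of 2 in either direction in S2CK against P27NULL or against WT.

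Spp1 was high in SC-like cells of S2CK and, unlike Msln, was also found at a high level in cells of other types. SC-like cells had 22 UMIs in WT (41.3 CPM, interval 25.9 to 62.6, 10 of 136 cells), 13 in P27NULL (34.4 CPM, 18.3 to 58.8, 7 of 104 cells) and 190 in S2CK (300.4 CPM, 259 to 346, 19 of 84 cells). WT and P27NULL overlap and S2CK stands above both. The log2 ratio was 3.13 (2.32 to 4.06) for S2CK against P27NULL, 2.86 (2.22 to 3.57) against WT and -0.27 (-1.38 to 0.79) for P27NULL against WT. Melanotroph-like cells had 0.165, 0.693 and 2.35 CPM, so this background was also highest in S2CK, at 1.13% of cells with a UMI.

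**Figure D1:**
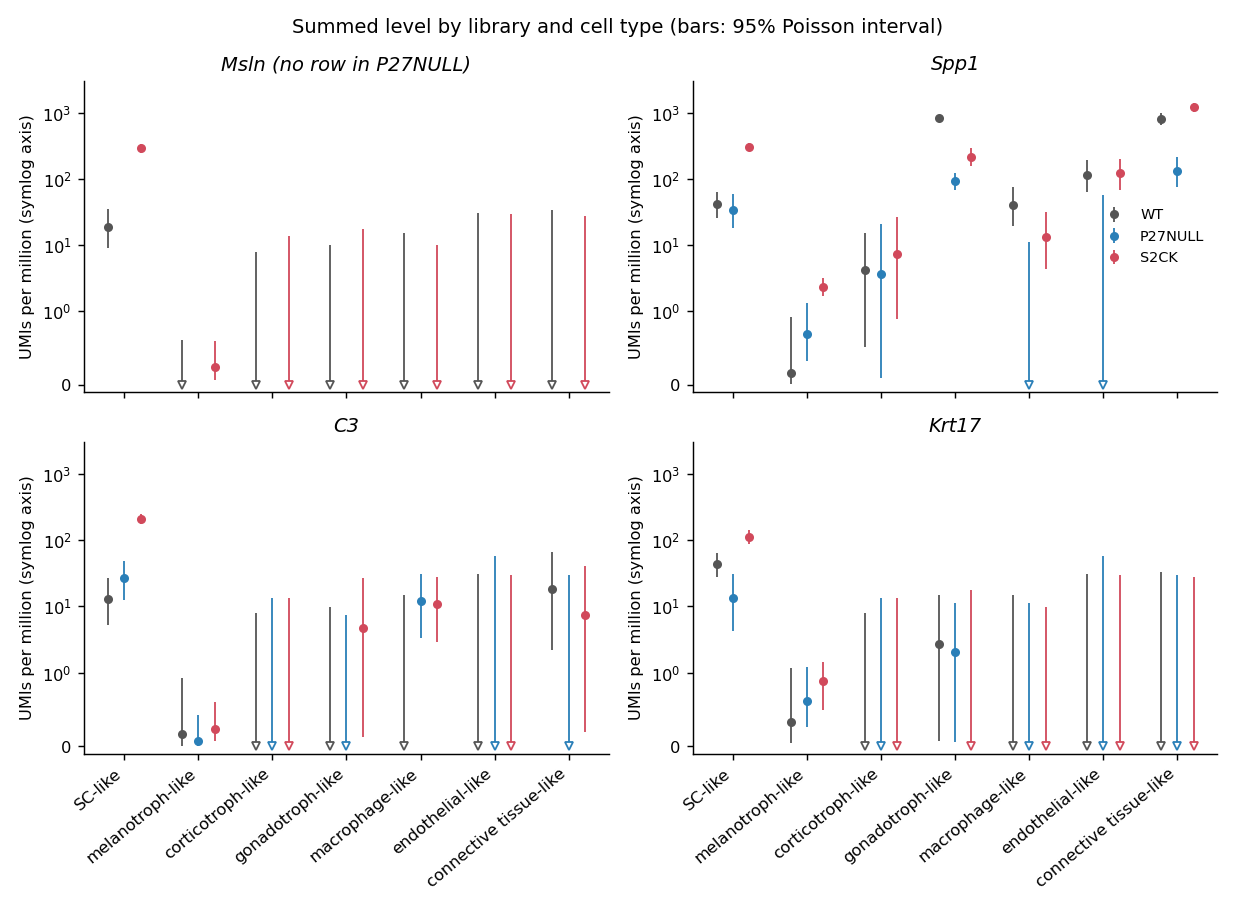
Level of the 4 genes by library and cell type. Each point is the sum of UMIs over all cells of a type in a library, in CPM on an axis that is linear under 1 and logarithmic above, bars are 95% Poisson intervals and open triangles mark 0 UMIs. Msln, C3 and Krt17 stand highest in SC-like cells of S2CK (288, 207 and 112 CPM), while Spp1 reaches 825 CPM in gonadotroph-like cells of WT and 1211 CPM in connective tissue-like cells of S2CK.

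The Spp1 sum of S2CK rested on few cells. The 3 cells with most of it held 54, 48 and 30 UMIs, 69.5% of the 190, and 7 of the 19 positive cells held exactly 1. The cell with 54 UMIs also had 106 UMIs of connective tissue markers (Dcn, Lum, Col1a1, Col1a2, Col3a1, Pdgfra and Mgp) and 11 of SC markers, whereas the cell with 48 had 4 and 84. Without the top cell of each library the log2 ratio was 3.36 against P27NULL and 2.74 against WT. Without the 10 SC-like cells of S2CK whose connective tissue markers reached 1000 CPM, and the 3 and 6 such cells of WT and P27NULL, it was 3.01 (1.98 to 4.26) and 2.14 (1.46 to 2.87). In another filter, cells holding 2 or more marker genes of macrophages, endothelium, connective tissue or T and NK cells were left out. Without them the ratio fell to 1.57 (0.32 to 2.96) against P27NULL and 1.38 (0.25 to 2.59) against WT. Without SC-like cells in the top 10 percent of UMIs of their library instead, it fell to 1.42 (0.26 to 2.68) and 2.15 (0.85 to 3.63). This cut fell unequally on SC-like cells. It took out 27 of S2CK (57 left), 10 of P27NULL (94 left) and 20 of WT (116 left). The 10 cells rich in connective tissue markers held 86 of the 190 UMIs, and the 33 cells with no connective tissue marker UMI held 10 in 4 cells. What share of the Spp1 in SC-like cells came from connective tissue RNA was not tested beyond these values.

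Gonadotroph-like cells, which make the gonadotropin subunits encoded by Lhb and Fshb and are a cell type of the anterior lobe, gave another order. Spp1 had 306 UMIs in 34 of 51 cells of WT (825 CPM, 735 to 923), 45 UMIs in 17 of 130 cells of P27NULL (92.1 CPM, 67.1 to 123) and 45 UMIs in 11 of 37 cells of S2CK (215.5 CPM, 157 to 288). The 3 intervals do not overlap. A single cell held 20 of the 45 UMIs of S2CK. Without the top cell of each library the levels were 784 CPM in WT (282 UMIs), 70.9 CPM in P27NULL (34 UMIs) and 126.7 CPM in S2CK (25 UMIs). P27NULL and S2CK were then closer, and no interval was computed for these levels. In WT the level was spread over the cells, with a median of 4.59 UMIs per 10000 and 34.6% of UMIs in the 5 top cells, whereas in P27NULL and S2CK the median was 0.0 and the 5 top cells held 60.0% and 84.4%. Thinned to 2000 UMIs, 52.3% of WT, 12.0% of P27NULL and 20.3% of S2CK gonadotroph-like cells would hold a UMI, against 68.0%, 16.1% and 33.3% of the same cells unthinned. Relative to WT the log2 ratio was -3.16 (-3.65 to -2.71) in P27NULL and -1.94 (-2.42 to -1.48) in S2CK, and S2CK stood above P27NULL by 1.23 (0.60 to 1.86). Within P27NULL the level was 107 CPM in 12 cells called female by Xist and 90.7 CPM in 117 cells called male, with overlapping intervals.

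**Figure D2:**
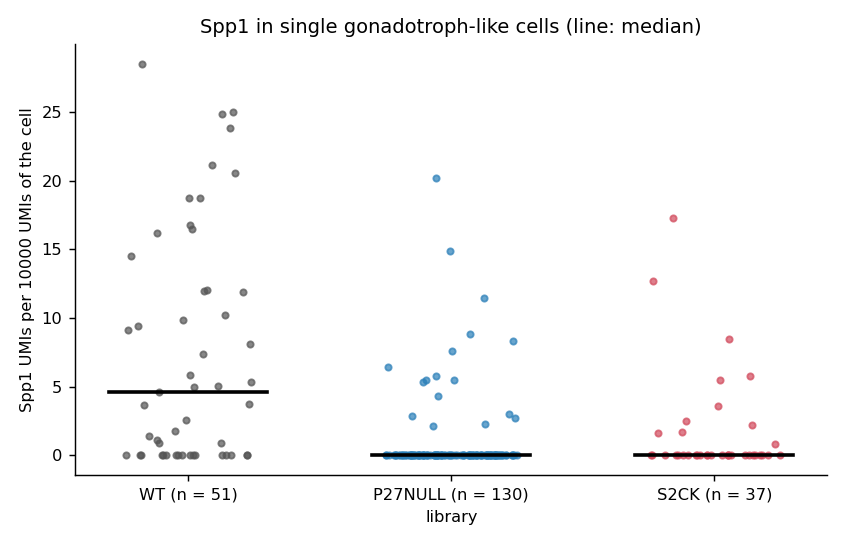
Spp1 in single gonadotroph-like cells. Each point is a cell, the vertical axis gives Spp1 UMIs per 10000 UMIs of that cell, points are spread sideways for sight, and the line is the median, at 4.59 in WT (51 cells) and 0.0 in P27NULL (130 cells) and S2CK (37 cells).

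In connective tissue-like cells Spp1 was at 802 CPM in WT (88 UMIs, 17 of 52 cells), 131 CPM in P27NULL (16 UMIs, 9 of 47 cells) and 1211 CPM in S2CK (163 UMIs, 17 of 38 cells). P27NULL was below both other libraries, with a log2 ratio of -2.61 (-3.48 to -1.83) against WT. A single cell held 80 of the 163 UMIs of S2CK, and without the top cell of each library the levels were 590.0, 101 and 714 CPM. Endothelial-like cells had 115 CPM in WT and 121 CPM in S2CK, where all 15 UMIs were in 1 cell. P27NULL thus had the lowest Spp1 of the 3 libraries in gonadotroph- and connective tissue-like cells. In SC-like cells it overlapped WT, and its ratio to WT turned positive without the top 10 percent of UMIs (0.73, -0.81 to 2.36) and by means over cells (0.39). Over the 27 library and cell type pairs with at least 20 cells, the genes whose log2(CPM + 10) followed Spp1 most closely were Timp1, a metalloproteinase inhibitor (r = 0.776), Csrp2 (r = 0.745) and Sh3pxd2a (r = 0.744). These correlations are a description, since pairs share libraries and depth.

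Genes through which osteopontin acts were mostly rare in SCs. Of 16 listed osteopontin receptors and cleaving proteases, Itgb1, Itgb5 and Plat had enough UMIs in S2CK and P27NULL to compare (at least 20 in both together), and 0 of these 3 passed a fold of 2, as was so for most genes (4.94% of all genes higher and 7.8% lower). Itgb1, the integrin chain shared by many matrix receptors, stood at 218 CPM in WT, 214 in P27NULL and 202 in S2CK. Cd44 had no UMI in SC-like cells of any library.

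Spp1 lies on chromosome 5 at 104435111 to 104441053, and the RefSeq table for GRCm38.p6 gives it 2 start sites. The 250 bases before the upstream start are shown because Spp1 and C3 were found in the same cells of S2CK. They are on the plus strand at chr5:104434861-104435110, and capitals mark matches to the motifs searched.

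Spp1: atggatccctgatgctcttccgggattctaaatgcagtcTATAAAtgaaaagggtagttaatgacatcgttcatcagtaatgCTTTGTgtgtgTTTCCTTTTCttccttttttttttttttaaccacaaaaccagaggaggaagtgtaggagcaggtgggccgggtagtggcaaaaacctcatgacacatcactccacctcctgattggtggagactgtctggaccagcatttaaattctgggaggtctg

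The window of 250 bases before to 50 after this start held TATAAA at positions -211 to -206, a letter group found in 13.6% of 32544 promoter windows. It held ACAAAG, a SOX-type motif, on the reverse strand at -168 to -163 (18.7% of windows) and an interferon response motif, printed in capitals as it stands on this strand, on the reverse strand at -157 to -148 (3.45% of windows). The window of the second start held ACAAAG on the reverse strand at -243 to -238 and TTGCNNAA, a C/EBP-type motif, at -156 to -149. Both strands were searched.

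C3 was highest in SC-like cells of S2CK and had at most 4 UMIs in any other cell type of any library. SC-like cells had 7 UMIs in WT (13.2 CPM, 5.29 to 27.1, 5 of 136 cells), 10 in P27NULL (26.4 CPM, 12.7 to 48.6, 7 of 104 cells) and 131 in S2CK (207 CPM, 173 to 246, 25 of 84 cells). The log2 ratio was 2.97 (2.05 to 4.06) for S2CK against P27NULL and 3.98 (2.89 to 5.32) against WT, while P27NULL and WT overlapped (1.01, -0.53 to 2.64). Melanotroph-like cells held 1, 1 and 4 UMIs, with 0.134% of S2CK cells positive against 29.8% of its SC-like cells. Macrophage-like cells had 4 UMIs in P27NULL (12.1 CPM) and 4 in S2CK (10.7 CPM) and none in WT. The 3 cells with most C3 in S2CK held 25, 18 and 17 UMIs, 45.8% of the sum, and without SC-like cells in the top 10 percent of UMIs of their library the ratio was 0.83 (-0.88 to 2.64) against P27NULL and 2.05 (-0.01 to 4.60) against WT. Both intervals then reach 0.

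Most other complement genes had few UMIs in SCs, apart from some regulators. Of the 18 other initiators and components listed, C1qa, C1qb and C1qc, the subunits of C1q made by macrophages, had enough UMIs to compare. Against P27NULL, C1qb was higher in S2CK (33.2 against 13.2 CPM, log2 ratio 1.33, -0.12 to 3.09) and C1qc lower (20.6 against 47.6 CPM, -1.21, -2.36 to -0.10), and 0 of these 3 passed a fold of 2 against WT. C2, C4b and Cfb, which act with C3 in its activating convertases, had 7, 2 and 1 UMIs in SC-like cells of S2CK. Among complement regulators 0 of 4 comparable genes passed against P27NULL and 0 of 5 against WT, where most genes of any kind did not pass either (4.94% of all genes higher and 7.8% lower against P27NULL, 5.02% and 5.67% against WT). Clu, the most abundant of them, had 2101, 2462 and 1372 CPM in WT, P27NULL and S2CK. None of the 8 receptors had enough UMIs, with 1 UMI each for C3ar1 and C5ar1 in S2CK.

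C3 lies on chromosome 17 at 57203967 to 57228136. The bases before its start are on the minus strand at chr17:57228137-57228386, printed 5′ to 3′ in the direction of the gene with motif matches in capitals.

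C3: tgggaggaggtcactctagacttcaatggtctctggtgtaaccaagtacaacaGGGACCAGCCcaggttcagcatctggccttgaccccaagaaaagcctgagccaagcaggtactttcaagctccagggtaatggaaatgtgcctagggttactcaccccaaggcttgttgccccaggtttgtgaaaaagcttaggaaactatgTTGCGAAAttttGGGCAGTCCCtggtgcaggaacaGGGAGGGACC

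The window held the C/EBP-type motif TTGCNNAA, found in 10.8% of windows, at -45 to -38, and 3 matches to a loose NF-kB-type motif found in 20.8% of windows, at -197 to -188, at -33 to -24 on the reverse strand and at -10 to -1. TATAAA was at 14 to 19 after the start. A stricter NF-kB-type motif, every match of which also matches the loose one, was in no window of either gene (1.47% of all windows), and neither were TGANTCA (AP-1), AACAAT (SOX) and TTCNNNGAA (STAT). A match says only that these letters are there. The RefSeq table of starts gave windows for Spp1 and C3, 2 of the 4 genes.

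Krt17 was higher in S2CK than in both other libraries and was at its lowest in P27NULL. SC-like cells had 23 UMIs in WT (43.2 CPM, 27.4 to 64.8, 16 of 136 cells), 5 in P27NULL (13.2 CPM, 4.29 to 30.9, 3 of 104 cells) and 71 in S2CK (112 CPM, 87.7 to 142, 32 of 84 cells). Log2 ratios were 3.09 (1.80 to 4.75) for S2CK against P27NULL, 1.38 (0.68 to 2.12) against WT and -1.71 (-3.46 to -0.28) for P27NULL against WT. When SC cells were instead picked 1 by 1 from Sox2 and Sox9 UMIs, which left 20, 26 and 17 cells, the sign of P27NULL against WT turned (1.70, -1.64 to 7.32), on an interval that spans 0. Without cells holding 2 or more immune, endothelial or connective tissue marker genes the interval of P27NULL against WT also spanned 0 (-1.31, -3.13 to 0.22). Its UMIs were the most evenly spread of the 4 genes, with 33.8% in the 3 top cells and 19 of 32 positive cells at exactly 1 UMI. In melanotroph-like cells 0.158%, 0.237% and 0.501% of cells had a UMI. Krt17 lies on chromosome 11 at 100256215 to 100261029.

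Several other keratins were measured in the same cells. Of 7 simple epithelial keratins, Krt7, Krt8, Krt18 and Krt19 could be compared and 0 of 4 passed a fold of 2 in S2CK against P27NULL or against WT, where 4.94% and 5.02% of all genes were higher and 7.8% and 5.67% lower. Krt18 (1977 CPM in WT, 1592 in P27NULL, 1731 in S2CK) and Krt8 (406, 283 and 421 CPM) had log2 ratios of 0.12 (-0.02 to 0.27) and 0.57 (0.24 to 0.91) for S2CK against P27NULL. Krt19, with 8, 7 and 19 UMIs in WT, P27NULL and S2CK, had a ratio of 0.999 against WT (-0.26 to 2.40), an interval that overlaps that of Krt17. Among the other basal and stress keratins and squamous genes, Krt5, Krt6a and Krt16 had no row, Krt14 had 2 UMIs and Trp63 7 UMIs in SC-like cells of S2CK, and Dsp, a desmosome component, was lower against WT (19 against 34 UMIs, log2 ratio -1.09, -1.98 to -0.24). Hsd17b2, a steroid dehydrogenase, was the gene most like Krt17 over the 27 pairs (r = 0.982), followed by Fxyd3 (r = 0.96) and the claudin Cldn4 (r = 0.949). Msln followed Krt17 (r = 0.953), Hsd17b2 (r = 0.937) and Sema3c (r = 0.928) over the 19 pairs of WT and S2CK. Msln and Krt17 were both chosen for high levels in SC-like cells of S2CK, which are among these pairs. Their correlation therefore restates that choice and supports nothing. Among the 3 genes most like C3 were AC154683.1 (r = 0.89) and again Hsd17b2 (r = 0.845). Hsd17b2 itself was low, at 26.9 CPM in SC-like cells of S2CK, the pair where it was highest.

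Cells called female by Xist in P27NULL were few (18 SC-like cells) and held 1, 0 and 0 UMIs of Spp1, C3 and Krt17, with intervals reaching 115 CPM for Spp1 and 75.9 CPM for C3 and Krt17. The 86 male-called cells held 12, 10 and 5 UMIs. Against the female-called cells the Spp1 ratio of S2CK was 3.87 (1.37 to 9.18).

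The question whether the same few cells of S2CK carry the 4 genes was answered by counting them cell by cell. Of 84 SC-like cells, 31 had no UMI of any member, 24 had 1 member, 10 had 2, 12 had 3 and 7 had all 4. The 19 cells with 3 or more members held 79.7% of the Msln UMIs, 94.2% of Spp1, 85.5% of C3 and 49.3% of Krt17, and 39.6% of all UMIs of the SC-like cells. These 19 cells, 22.6% of the SC-like cells, thus carried most Msln, Spp1 and C3, whereas the share of Krt17 in them was closer to their share of all UMIs.

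**Figure D3:**
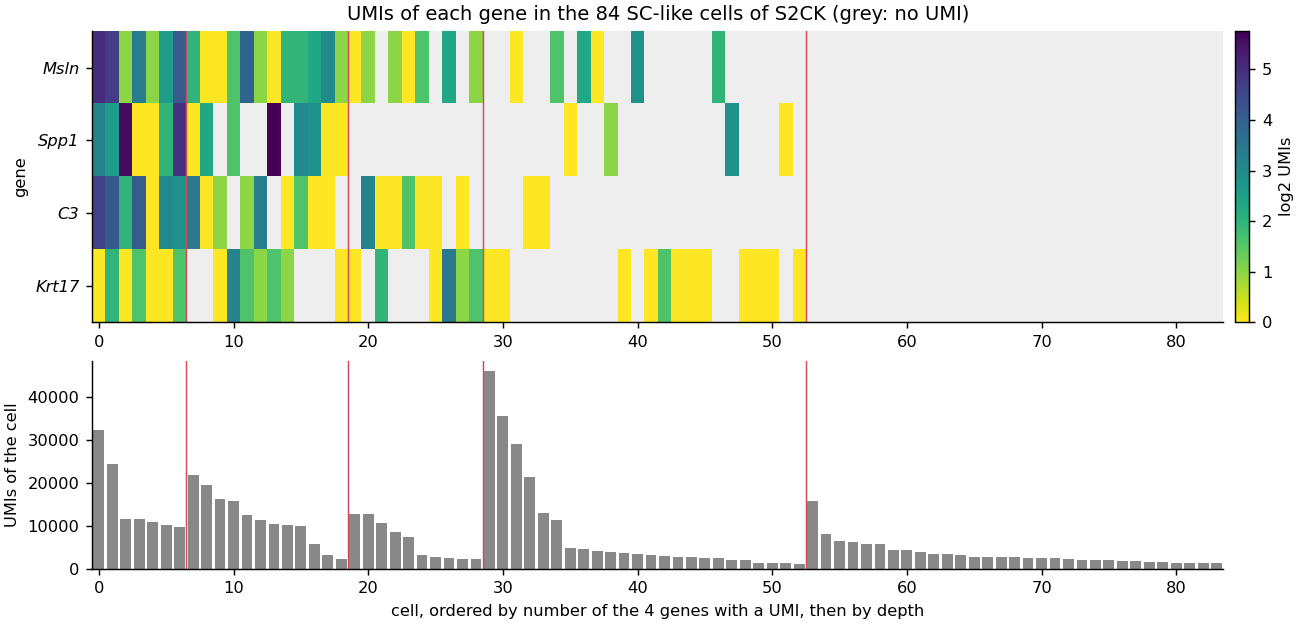
Msln, Spp1, C3 and Krt17 in each of the 84 SC-like cells of S2CK. Columns are cells ordered by how many of the 4 genes had a UMI, from 4 at the left to 0 at the right (red lines divide the groups), then by depth. Colour gives log2 of the UMIs with grey for none, and the lower bars give the UMIs of the cell. The 19 cells left of the second line hold most Msln, Spp1 and C3, and they are also among the deeper cells.

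The 7 cells with all 4 genes had between 9711 and 32335 UMIs. The cell of 32335 UMIs held 32 of Msln, 9 of Spp1, 25 of C3 and 1 of Krt17, and that of 24500 held 26, 6, 18 and 4. That of 11615 UMIs held 2, 48, 4 and 1, that of 11562 held 10, 1, 17 and 3, and that of 10862 held 2, 1, 1 and 1. The last pair, of 10293 and 9711 UMIs, held 6, 4, 8 and 1 and 17, 30, 7 and 3. The balance between the genes varied from cell to cell, with Msln the highest in some, Spp1 in others and C3 in others.

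Carriers were deeper than the other cells, which by itself raises the chance to see several genes. The median was 10422 UMIs in cells with 2 or more members, 3324 with 1 and 2685 with 0. The deepest SC-like cells, of 46240 and 35718 UMIs, were no carriers and held 1 UMI of Krt17 each and none of the other 3 genes. Among cells of at least 5000 UMIs, all 13 with Spp1 also had Msln, against 10 of 21 without Spp1. At the same depth, 18 of 21 cells with C3 had Msln against 5 of 13 without, and 11 of 13 with Spp1 had C3 against 10 of 21. For Krt17 the counts lay closer. At 5000 UMIs or more, 14 of 17 cells with Krt17 had Msln against 9 of 17 without, and under 5000 UMIs 3 of 15 against 6 of 35. Of the 24 cells with a single member, 12 held Krt17, 6 Msln, 4 Spp1 and 2 C3. These counts are over cells of 1 library and carry no test.

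Several members in a cell were less frequent in the other libraries. In WT 20 of 136 SC-like cells had 1 or more members, 11 had 2 or more (8.09%, exact binomial interval 4.11 to 14.0), 4 had 3 or more and 1 had all 4. In P27NULL, where 3 members could be counted, 16 of 104 cells had 1 or more and 1 cell had 2 (0.962%, 0.0243 to 5.24). The P27NULL shares here and below are out of 3 genes, which lowers them, and are not like for like with those out of 4. In S2CK 29 of 84 cells had 2 or more (34.5%, 24.5 to 45.7), and the interval lies above those of both other libraries. The genes were chosen for high levels in SCs of S2CK, so a higher share there, at any depth, follows from the choice and supports nothing. Among cells of at least 2000 UMIs the share was 40.3% (28.9 to 52.5) in S2CK and 14.1% (6.97 to 24.4) in WT, and among cells of at least 5000 UMIs 64.7% (46.5 to 80.3) and 25.8% (11.9 to 44.6), with no overlap. Among cells of at least 8000 UMIs, 20 of 28 in S2CK, 8 of 19 in WT and 0 of 10 in P27NULL had 2 or more. The intervals of S2CK (51.3 to 86.8%) and WT (20.3 to 66.5%) overlap there, whereas that of P27NULL (0.0 to 30.9%) lies below S2CK. With every cell of 2000 UMIs or more thinned to 2000, 22.4% of S2CK, 3.38% of WT and 0.445% of P27NULL cells would hold 2 or more, against 40.3%, 14.1% and 1.64% of the same cells unthinned. The thinning left out 12, 65 and 43 shallower cells. The most frequent pair in WT was Spp1 with Krt17, alone in 4 cells, whereas in S2CK no cell held this pair without Msln.

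**Figure D4:**
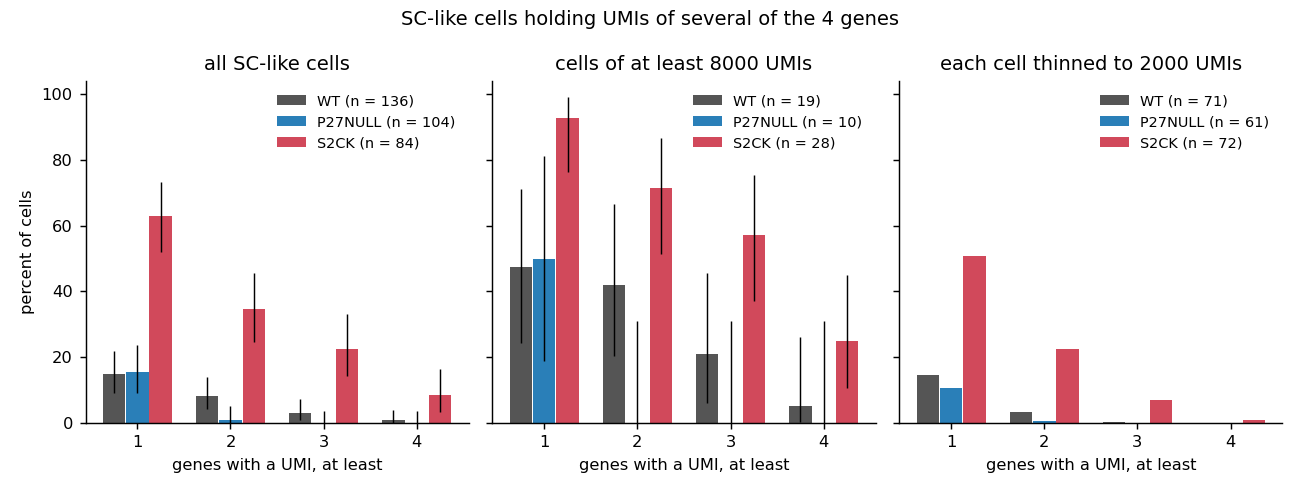
Share of SC-like cells holding UMIs of at least 1, 2, 3 or 4 of the genes. The vertical axis is percent of cells, bars are the libraries, lines are 95% exact binomial intervals (none for the thinned cells), and the panels show all cells, cells of at least 8000 UMIs and cells thinned to 2000 UMIs. S2CK, for whose SCs the genes were chosen, is highest for every count, at 34.5% of all cells for 2 or more against 8.09% in WT and 0.962% in P27NULL. Msln had no row in P27NULL, so its bars count fewer genes and are not like for like.

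Markers of other cell types were looked at in the 29 cells of S2CK with 2 or more members and in the 31 with none. The 7 connective tissue markers were all present in the 29 cells, at a summed 919 CPM against 382 CPM in the 31 cells, where Lum, Col1a1, Col3a1 and Pdgfra were at 0, and against 18060 CPM in connective tissue-like cells. A marker of this type was in 22 of the 29 cells and 16 of the 31, with a highest level per cell of 10170 and 2091 CPM. Macrophage markers were at 155 against 118 CPM (11270 CPM in macrophage-like cells), endothelial markers at 25.4 against 0.0 CPM, and pituicyte markers at 0.0 against 9.10 CPM. SC markers were at 4447 CPM in carriers and 6318 CPM in the others. Sox9 was at 98.3 CPM (31 UMIs, 66.8 to 139.5) in carriers and 45.5 CPM (5 UMIs, 14.8 to 106) in the others, with overlapping intervals. Sox2 was alike at 139.5 and 136.5 CPM, and Pomc, the hormone gene of melanotrophs, at 7798 and 8293 CPM. Over all SC-like cells of S2CK Pomc was at 21720 CPM, above both groups, so it was higher in the cells with 1 member. Cells with 1 member also make up part of the non-carriers of at least 5000 UMIs compared below. A filter on macrophage, endothelial, connective tissue and T or NK cell markers took out 25 SC-like cells of S2CK that held 2 or more. Of the rest, 14 cells had 2 or more members, 6 had 3 or more and 0 had all 4. Markers of melanotrophs and of other hormone-making cells were not part of this filter. The part of cell doublets and of free RNA in these counts was not tested further.

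Cells of S2CK carrying 2 or more members also differed from those with none in genes outside the 4. Of 2987 genes compared, 12.6% were higher past a fold of 2 in carriers and 6.19% lower. Anxa1, which encodes the anti-inflammatory protein annexin A1, was at 260 against 36.4 CPM (log2 ratio 2.84, 1.43 to 4.75). Lcn2, the acute-phase iron-binding protein lipocalin 2, was at 1075 against 200.3 CPM (2.42, 1.80 to 3.12). Cp, which encodes ceruloplasmin and is likewise an acute-phase gene, was at 266 against 54.6 CPM. Tagln, Igfbp7, Lamp2, Cd164 and the interferon-induced Ifit1 and Oasl2 were also among the 10 highest, with log2 ratios between 2.27 for Oasl2 and 3.87 for Cd164. The Cd164 ratio rested on 42 UMIs against 1 (interval 1.31 to 9.21). That of Tagln rested on 59 UMIs in 8 carriers against 3 UMIs in 1 other cell.

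The 5 lowest genes in carriers were led by a marker of SCs. Aldh1a2, the retinoic acid-making enzyme used to name SC-like cells, was at 9.51 against 291 CPM (-4.94). Ptn, which encodes the growth factor pleiotrophin, was at 85.6 against 1384 CPM (-4.01) and Apoe, which encodes apolipoprotein E, at 174 against 2094 CPM (-3.59). Thrsp and Epha5 were lower by similar ratios (-4.69 and -4.17). Among cells of at least 5000 UMIs, where 22 carriers and 12 other cells had medians of 11485 and 12188.5 UMIs, Aldh1a2 (-4.12), Ptn (-2.38) and Apoe (-2.28) were still lower, and Cp (2.94), Ifit1 (2.52) and Lcn2 (1.71, 1.33 to 2.11) higher, as was Anxa1 at 269 against 14.6 CPM. The intervals of Lamp2 (0.69), Cd164 (0.79) and Oasl2 (0.58) reached 0. The 12 other cells included cells with 1 member, among them the deepest, of 46240 and 35718 UMIs. Pomc was higher in cells with 1 member, so the groups differed in more than the members. What part of these ratios came from that was not tested. Igfbp7 rested on cells with connective tissue markers, since without those at 1000 CPM or more it had 2 UMIs in 25 carriers and 0 in 26 other cells, whereas Lcn2 (2.57) and Ptn (-5.48) were still past a fold of 2.

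**Figure D5:**
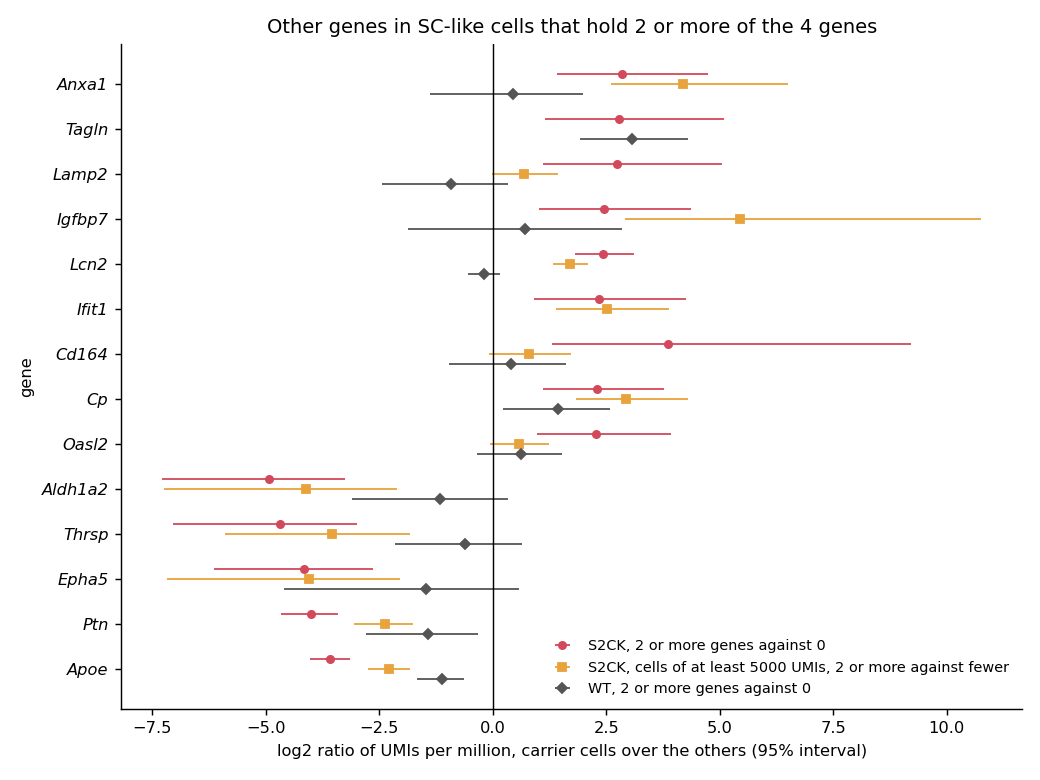
Of the 10 highest genes in SC-like cells of S2CK, 9, and the 5 lowest, in cells that hold 2 or more of the 4 genes. The horizontal axis is the log2 ratio of CPM in carriers over the other cells with its 95% interval, for all S2CK cells (circles, carriers against cells with none), S2CK cells of at least 5000 UMIs (squares, against cells with fewer than 2) and WT (diamonds), and a missing point means 0 UMIs on a side. Lcn2 stands to the right of 0 in both S2CK comparisons and at -0.19 in WT, whereas Tagln stands at 2.78 in S2CK and 3.07 in WT.

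Part of this profile was also seen in WT, where 11 cells with 2 or more members were set against 116 with none, at medians of 9013 and 1941.5 UMIs. Tagln (3.07, 1.93 to 4.31) and Cp (1.43, 0.23 to 2.58) were higher and Ptn (-1.43, -2.80 to -0.32) and Apoe (-1.13, -1.67 to -0.63) lower. Lcn2 was at 793.5 against 905 CPM (-0.19, -0.55 to 0.16) and Anxa1 at 48.4 against 35.6 CPM (0.44), and the WT intervals of both include 0. In P27NULL, where 16 cells with 1 or more of 3 members were set against 88, Igfbp7 (3.42, 2.22 to 4.84, on 33 against 7 UMIs), Tagln (2.57) and Anxa1 (1.28) were higher and Aldh1a2 (-3.98) and Apoe (-0.89) lower, and Lcn2 was at 571 against 640 CPM. A difference between the libraries in these ratios was not tested.

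Genes of acute-phase, NF-kB and interferon responses, in which C3 and Lcn2 are known to take part, were read in the SC-like cells of each library. Of 20 listed interferon-stimulated genes, 14 could be compared, and 8 were higher past a fold of 2 in S2CK than in P27NULL and 0 lower, beside 4.94% and 7.8% of all genes (median log2 ratio 1.13, against -0.10 for all genes). Against WT 5 of 14 were higher and 0 lower, beside 5.02% and 5.67% of all genes, with a median of 0.72 against -0.08. Ifit1 stood at 11.3 CPM in WT, 10.6 in P27NULL and 120 in S2CK, Ifit3 in the same order at 13.2, 13.2 and 94.9 CPM, and Isg15, a secreted ubiquitin-like protein, at 97.7, 34.4 and 163 CPM. Ifitm3, the most abundant, was at 3132, 2343 and 5042 CPM. Within S2CK, 5 of 11 were higher in cells with 2 or more members than in cells with none and 0 lower, beside 12.6% and 6.19% of all genes. The groups had medians of 10422 and 2685 UMIs, and Ifit1 was in 9 of 29 carriers. Among S2CK cells of at least 5000 UMIs, Ifit1 (2.52) and Isg15 (1.52) were still higher, and the intervals of Ifit3 and Oasl2 reached 0. In WT, carriers held 0 Ifit1 UMIs against 5 in cells with none, and the intervals of Isg15 (-0.19) and Oasl2 (0.63) included 0. In P27NULL, cells with 1 or more members held 0 Isg15 UMIs against 13 and 1 Ifit1 UMI against 3. Interferon-stimulated genes were not particular to SCs, since a melanotroph-like cluster of 36 S2CK cells had Ifit3b, Ifit1, Ifit3 and Isg15 as its top genes.

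Acute-phase and NF-kB targets were compared in the same way. Of 27 listed, 12 could be compared with P27NULL, of which Cxcl10 and Cp were higher (4.94% of all genes) and Tnfaip2 lower (7.8%), with a median of -0.06 against -0.10 for all genes. Against WT 3 of 13 were higher, namely Cxcl10, Cp and Nfkbiz, beside 5.02% of all genes, and the median was 0.51 against -0.08. Cxcl10, an interferon-induced chemokine, stood at 7.52 CPM in WT, 5.29 in P27NULL and 56.9 in S2CK, and Cp in that order at 54.5, 23.8 and 153 CPM. Lcn2 over all SC-like cells was at 913, 619 and 748 CPM, so S2CK lay between the other libraries in a gene that separated its carriers from its other cells. Of 16 secretory epithelium genes 3 could be compared, and Wfdc2 was higher in S2CK, at 371.5 CPM against 122 in P27NULL and 115 in WT. Beside it, 4.94% and 5.02% of all genes were higher in these 2 comparisons. Of 10 ciliated genes Rsph1 could be compared and was lower than in P27NULL (15.8 against 37.0 CPM, -1.23, -2.56 to 0.05), as were 7.8% of all genes.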

How the data were processed

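Single-cell RNA of the IL was measured in 3 libraries, 1 per genotype. The deposited tables hold raw counts of UMIs per gene and cell, which the authors made with Cell Ranger 3.0.2 on the Ensembl GRCm38 transcriptome after Chromium 3′ v3 capture, and cells with fewer than 50 genes or over 10% mitochondrial reads were removed by their methods. The deposited cells had at least 213, 502 and 517 genes and 502, 1005 and 1002 UMIs in WT, P27NULL and S2CK. WT thus kept shallower cells. It alone held cells under 500 genes or 1000 UMIs, 168 in all, of which 11 were SC-like. Authors' normalised values were not used here. Cells of each library were clustered with scanpy 1.11.5 and igraph 0.11.9 (2000 variable genes, 20 components, 20 neighbours, Leiden resolution 1), without the 4 genes, the listed pathway genes, sex-linked and immediate early genes and the genes the genotypes target. Clusters were named from marker lists by thresholds set after the data were seen. No doublet caller was run. From the SC-like cells, 9 cells of the S2CK stem cell cluster and 1 of P27NULL that joined pituicyte-like cells when the libraries were clustered together were taken out.

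UMIs were summed per library and cell type and given as CPM with 95% Poisson intervals. Shares have Clopper-Pearson intervals and log2 ratios the exact conditional interval. All cover counting error only, and UMIs without a replicate library give no test. Ratios over many genes used those with at least 20 UMIs in both groups together, and a fold of 2 counted as past the threshold. The scripts were tested on simulated data. Promoter windows come from RefSeq on GRCm38.p6 and span 300 bases. The 4 genes and all lists were chosen with earlier results of these data known. Genes named are the 4 members, those of each list past a fold of 2 in S2CK (at most 8 a list), the 10 highest and 5 lowest in carriers (at least 30 UMIs in at least 8 cells, ranked with counts under 3 in either group set to 3), and for each member the 3 genes with the highest Pearson correlation. Of these, 2 genes are not reported here. Other genes named for context, such as Clu, Krt8, Krt18, Itgb1, Sox2 and Pomc, were picked after their values were seen. Alternatives were other SC definitions, depth filters, per-cell means, edgeR 4.0.16 TMM factors and UMI minimums. Leaving out cells rich in connective tissue markers or the cell with most UMIs, and keeping all cells of the SC clusters, were added after seeing the data.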

Additional observations from a re-analysis of the deposited data

Results flagged for a closer look

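Spp1 is the only one of the 4 genes that was listed for a closer look, because its difference between S2CK and WT had opposite signs in different cell types. The log2 ratio was 2.86 in SC-like cells, 3.83 in melanotroph-like cells and 0.59 in connective tissue-like cells, all higher in S2CK, and -1.94 in gonadotroph-like cells, lower in S2CK. The melanotroph value rests on 1 UMI in WT and on levels treated above as background. In connective tissue-like cells a single cell held 80 of the 163 UMIs of S2CK. Without the top cell of each library the levels there were 714 CPM in S2CK and 590.0 CPM in WT. With 1 library per genotype, the difference between cell types was not tested.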

How the results depend on the processing

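No paired analysis was possible because each genotype has 1 library and no replicate numbers. Depth and the few carrier cells limit these values, the sex of the cells differs between the libraries, and no interval covers the spread between animals. Of 119 recomputed log2 ratios 102 lay within the interval of the reported value. In all, 3 changed sign, each in P27NULL against WT: Krt17 below, and Spp1 at 0.73 without the top 10 percent of UMIs and 0.39 by per-cell means. Msln has no ratio without the top 10 percent, since WT then has no Msln UMI. The cause of the moves was not tested.

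Picking cells by Sox2 and Sox9 UMIs gave 2.10 for Spp1 in S2CK against WT, 1.72 and 3.42 for Krt17 against P27NULL and WT, and turned Krt17 in P27NULL against WT to 1.70. It left 10, 8 and 2 cells with 2 or more, 3 or more and all 4 members. Without cells holding 2 or more immune, endothelial or connective tissue marker genes, Spp1 was at 1.57 against P27NULL and 1.38 against WT. C3 was then at 1.83 against P27NULL, and 14, 6 and 0 cells with these numbers of members remained. Without the top 10 percent of UMIs, Spp1 was at 1.42 and 2.15, C3 at 0.83 and 2.05 and Krt17 at 5.33 against P27NULL, with 9, 3 and 0 cells. That cut took out 27 SC-like cells of S2CK, 10 of P27NULL and 20 of WT. Means of per-cell CPM gave 5.09 for Msln and 2.27 for Krt17 against WT, and 1.86 for C3 and 5.13 for Krt17 against P27NULL. Without cells rich in connective tissue markers, added after seeing the data, Spp1 against WT was 2.14. Thinning to 2000 UMIs left 16.1, 4.95 and 0.65 cells expected.

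Of 49 listed genes with at least 20 UMIs, 12 were higher and 3 lower in S2CK than in P27NULL, beside 4.94% and 7.8% of all genes. A minimum of 10 gave 6 lower of 69 genes, and one of 50 gave 7 higher and 1 lower of 32. Against WT 9 higher of 51, beside 5.02% of all genes, became 14 of 66 at 10 UMIs and 5 of 34 at 50. In P27NULL against WT the 4 higher became 7 and 1, and the 3 lower became 1 at 50 UMIs. At 20 UMIs 4.3% of all genes were higher there and 3.04% lower. Shares of all genes at the other minimums are not given here, and the number of genes compared changes with the minimum.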
